A study of Mus musculus with 12 samples.

Results

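The genes described here encode the constitutive 26S proteasome of the mouse with its assembly factors and alternative activators. Members were all genes on the arrays whose single annotated symbol began with Psma, Psmb, Psmc, Psmd, Psme, Psmf or Psmg followed by a number, without the interferon-inducible Psmb8, Psmb9, Psme1 and Psme2. The rule took 45 of 19057 annotated genes, with 80 probes in all, and each gene was represented by its brightest probe. Of these genes, 17 belong to the 20S core, 17 to the 19S cap and 7 to the assembly factors, 2 are other activators, and 2 are further matches of the rule. The further matches are Psmc3ip, which encodes a partner of recombination proteins in meiosis, and Psme3ip1, which encodes a protein that binds the activator Psme3. Neither is a proteasome subunit. Psmb10 stayed among the members by the rule although it encodes a catalytic subunit of the immunoproteasome.

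RNA was measured on 12 Illumina bead arrays, 3 in each of 4 groups of male C57BL6/J mice. The groups were hepatocytes freshly isolated from IkkβDhep mice (Dhep, Cre-positive, Ikkβ-deleted), hepatocytes freshly isolated from IkkβF/F mice (FF, Cre-negative), fresh liver of Dhep mice and fresh liver of FF mice. By the usual meaning of these symbols both genotypes carry loxP-flanked Ikkβ alleles and the deletion is in hepatocytes. Ikbkb encodes Ikkβ, a kinase upstream of NF-κB. The sources used here do not name the promoter that drives Cre. The labels state an age of 4-6 weeks and the study's description 6-8 weeks. The description gives 4 mice and 4 RNA samples, so each group was read as 1 RNA sample from 1 mouse, hybridised to 3 arrays. Every p-value between arrays therefore compares RNA samples, and the spread between mice was not measured.

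The proteasome degrades proteins that carry ubiquitin chains. Its 20S core is a barrel of alpha rings, which gate the entrance, and beta rings, which hold the proteolytic sites. The 19S cap binds the ubiquitin chain, removes it, unfolds the substrate with a ring of ATPases and threads it into the core. In immune cells and in cells exposed to interferon, inducible beta subunits replace the constitutive catalytic ones, which changes the peptides made for presentation on MHC class I. The transcription factor NRF1, encoded by Nfe2l1, drives many proteasome genes when proteasome activity falls, through elements in their promoters.

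The 3 FF hepatocyte arrays stood apart in brightness. Their raw 75th percentiles reached at most 85.7 intensity units, against at least 94.7 on the other arrays, so the scaling between arrays bears on every comparison with that group. After quantile normalization Pearson's r across probes was 0.997 to 0.998 within groups and 0.981 to 0.993 between groups. The hepatocyte label was set against 10 hepatocyte markers, all of which were above the background floor in the 4 groups. Of these markers 3 were higher and 1 lower in Dhep hepatocytes than in Dhep liver, and 2 were higher and 3 lower in FF hepatocytes than in FF liver, with medians of 0.00 and -0.02 on the log2 scale. Of all tested probes 21.4% were higher and 20.5% lower in Dhep, and 20.9% and 26.9% in FF. Among the markers albumin, Alb, gave 0.44 in Dhep and 0.53 in FF (0.61 and 0.12 under median scaling), and the transcription factor Hnf4a gave -0.39 in Dhep and -0.44 in FF. The Alb probe was dim, with raw intensities of 146.1 to 324.2, against 28700 to 43010 for the marker Apoa1. On the log2 scale Apoc3 stayed at 15.24 to 15.42 and Tat at 6.36 to 6.98, near the floor. Such probes could show little enrichment, so these markers check the hepatocyte label only weakly. Summed linear signal of 10 Kupffer cell markers was 12180 to 12440 in Dhep hepatocytes, 3826 to 3881 in FF hepatocytes, 9102 to 9426 in Dhep liver and 4203 to 4354 in FF liver. That of 10 endothelial markers was 5087 to 5227 in Dhep hepatocytes, 9527 to 9817 in FF hepatocytes, 8959 to 9207 in Dhep liver and 7857 to 8086 in FF liver. That of 10 stellate cell markers was 4078 to 4342 in Dhep hepatocytes, 8518 to 8798 in FF hepatocytes, 9182 to 9450 in Dhep liver and 9105 to 9432 in FF liver. Of these lists, 9 of 10 Kupffer cell markers, all but Cd5l, and 9 or 10 of 10 endothelial and stellate cell markers were above the floor in each group. Markers of other liver cells thus moved with genotype and with isolation, and their part in the proteasome differences was not tested. In such bulk samples, fewer cells of a type and less RNA per cell cannot be told apart. The Ikbkb probe read 7.67, 7.62 and 7.67 on the log2 scale in Dhep hepatocytes, against 7.28, 7.39 and 7.39 in FF hepatocytes. The sources used here do not place this probe relative to the deleted part of the gene, so it does not check the deletion.

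RefSeq promoter windows, running from 250 bases before to 50 bases after the annotated start on GRCm38.p6, were found for 37 of the 45 members, with 40 starts in all. They were searched on both strands for TGACNNNGC, the core of the antioxidant response element that NRF1 and NRF2 bind, for CCAAT and for TATAAA. TGACNNNGC stood in 6 of the 40 windows (15%), against 12.4% of the 32851 windows of all genes. CCAAT stood in 37.5% of the members' windows, against 37.4% of all windows, and TATAAA in 7.5%, against 13.6%. Among the subcomplexes CCAAT was in 7 of 14 windows of the 20S core and in 4 of 15 of the 19S cap. The 6 windows with TGACNNNGC belong to Psmb5, Psmb6, Psmc6, Psmd12, Psmd9 and Psme4. In Psme4 the match lies 7 bases before the start and in Psmd9 31 bases before it, both nearer than in Psmb5. The windows of the catalytic genes Psmb5 and Psmb6 are shown, with the match in capitals. It lies 47 bases before the start in Psmb5 and 9 bases before it in Psmb6. No CCAAT stands in either, so the matches overlap none. Those of Psmd1 and Psmg3 are shown beside them, since these genes lay furthest apart in opposite directions between the hepatocyte groups after Psmb10, and neither window holds TGACNNNGC or CCAAT. That of Psmd1 holds TATAAA, not marked, 122 bases before the start. The windows lie at chr14:54617946-54618245 on the minus strand (Psmb5), chr11:70525107-70525406 on the plus strand (Psmb6), chr1:86064369-86064668 on the plus strand (Psmd1) and chr5:139826845-139827144 on the minus strand (Psmg3). All are written 5′ to 3′ along the gene, and a match says only that these letters stand in the window.
Psmb5: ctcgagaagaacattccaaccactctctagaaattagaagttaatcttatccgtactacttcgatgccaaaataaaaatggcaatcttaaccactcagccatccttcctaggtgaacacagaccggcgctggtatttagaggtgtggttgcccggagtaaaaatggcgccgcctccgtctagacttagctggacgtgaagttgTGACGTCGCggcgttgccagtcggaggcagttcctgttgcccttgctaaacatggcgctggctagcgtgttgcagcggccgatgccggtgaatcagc
Psmb6: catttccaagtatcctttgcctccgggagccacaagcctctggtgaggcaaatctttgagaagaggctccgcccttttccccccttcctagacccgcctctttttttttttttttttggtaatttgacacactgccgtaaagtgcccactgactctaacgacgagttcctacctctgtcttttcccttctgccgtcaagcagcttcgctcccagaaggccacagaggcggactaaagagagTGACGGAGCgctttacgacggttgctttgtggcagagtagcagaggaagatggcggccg
Psmd1: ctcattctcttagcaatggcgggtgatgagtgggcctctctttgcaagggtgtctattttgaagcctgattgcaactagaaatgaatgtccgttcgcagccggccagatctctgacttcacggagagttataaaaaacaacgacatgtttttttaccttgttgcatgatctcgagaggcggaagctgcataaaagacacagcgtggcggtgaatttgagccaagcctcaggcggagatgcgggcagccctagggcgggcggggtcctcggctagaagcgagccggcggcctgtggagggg
Psmg3: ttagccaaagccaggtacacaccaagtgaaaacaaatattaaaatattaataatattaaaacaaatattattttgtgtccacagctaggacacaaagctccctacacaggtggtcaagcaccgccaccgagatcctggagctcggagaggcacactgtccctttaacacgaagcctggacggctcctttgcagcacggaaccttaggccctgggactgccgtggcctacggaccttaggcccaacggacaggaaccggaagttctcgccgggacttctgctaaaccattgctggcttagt

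Of the 45 members, 40 were tested. A probe was tested where it exceeded the floor, 6.06 on the log2 scale, on every array of at least 1 group. The alpha subunits Psma1, Psma3 and Psma6, the cap subunit Psmd3 and the assembly chaperone Psmg4 did not, with group means of 5.77 to 6.01. Among the 40, Psmb11 and Psmc3ip were not above the floor on all 12 arrays, and the other 38 were. Repeat arrays were close, with a median SD of 0.055 over members and groups. The 4 group means of a member spanned 0.35 at the median, with 0.05 for Psmb11, the thymus-specific beta subunit, at one end and 1.20 for Psmb10 at the other.

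The first comparison asked how proteasome RNA differed between genotypes in isolated hepatocytes. Most 19S cap and alpha ring genes were modestly higher in Dhep than in FF hepatocytes, and Psmb10 stood far above the rest. Of the 40 members tested, 22 were higher and 5 lower in Dhep hepatocytes at an adjusted p under 0.05 (limma, Benjamini-Hochberg over 22859 probes), where 27.7% of all tested probes were higher and 26.2% lower. Under median scaling in place of quantile normalization, 35 members were higher and 1 lower. The share of all probes called under median scaling is not given here. Counts under that scaling, here and below, thus have no such share beside them. The median log2 difference of the members was 0.18, against -0.01 over the brightest probes of 11989 genes, and 0.53 under median scaling. That scaling moved the median of all probes as well, to 0.17 here, to -0.15 for isolation in FF and to 0.23 for the difference between the genotype differences, where quantile normalization gave 0.00, -0.03 and 0.02. The move was not even over probes. Near the floor Ube2d1 gave 0.01 under quantile normalization and 0.00 under median scaling, while the brighter Ecpas gave 0.07 and 0.53. The median of all probes, here and below, thus does not show how far that scaling moved the brighter members. At the further threshold of 1.5-fold, Psmb10 and Psmd1 were higher and Psmg3 was lower, where 4.65% of all probes were higher and 5.58% lower. All Dhep hepatocyte arrays lay above all FF hepatocyte arrays in 22 members and below them in 7, where 30.1% and 28.6% of all probes did.

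**Figure D1:**
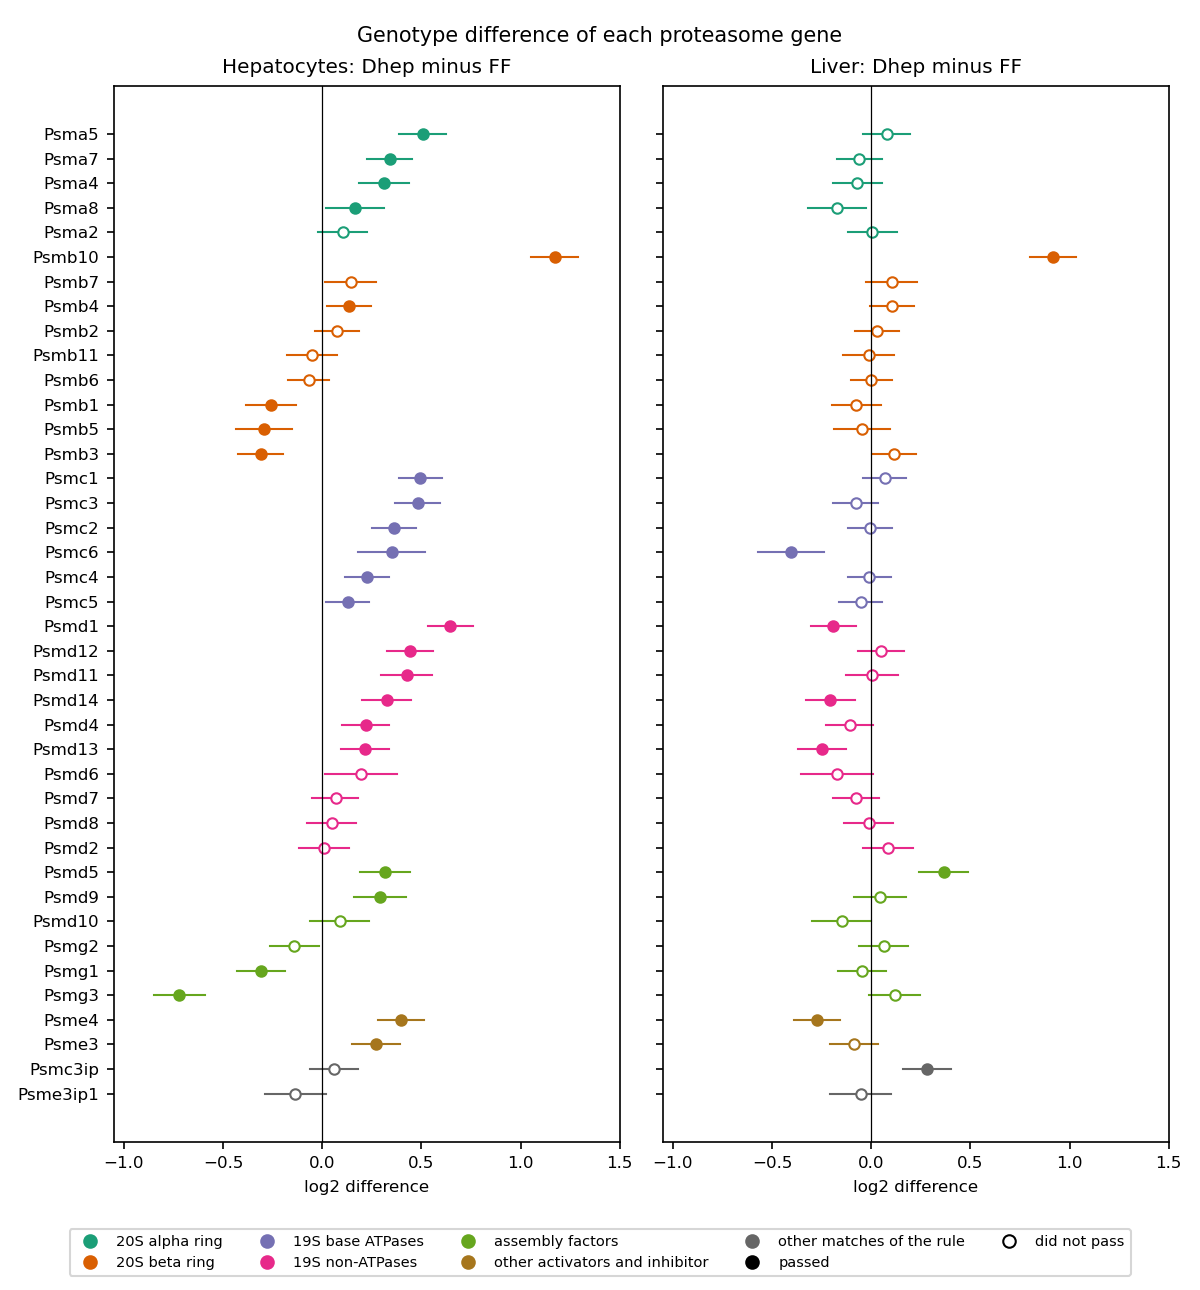
Log2 difference between genotypes, Dhep minus FF, of the 40 tested proteasome genes in isolated hepatocytes (left) and liver (right), with 95% confidence intervals from limma. Filled points passed an adjusted p under 0.05. In hepatocytes 22 points pass to the right and 5 to the left (35 and 1 under median scaling), and in liver 3 pass to the right and 5 to the left (3 and 23 under median scaling).

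In the alpha ring, 4 of the 5 tested genes were higher in Dhep hepatocytes and 0 lower, with a median difference of 0.31 (5 and 0 under median scaling, 0.55). Psma5, a structural alpha subunit, read 12.73, 12.51 and 12.61 on the log2 scale on the Dhep hepatocyte arrays, against 12.16, 12.10 and 12.07 on the FF hepatocyte arrays. All Dhep hepatocyte arrays lay above all FF hepatocyte arrays. The difference was 0.51 ± 0.06 (SE, limma, adjusted p = 6.53e-08). Psma7 differed by 0.34 and Psma4 by 0.31. Psma8, the testis-specific alpha subunit, passed narrowly at 0.17 (limma, adjusted p = 0.0497) with levels near the floor, and Psma2 gave 0.10 and did not pass (limma, adjusted p = 0.156).

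The beta ring was mixed. Of its 9 tested genes, 2 were higher in Dhep hepatocytes and 3 lower, and the median difference was -0.05, which turned to 0.23 with 6 higher and 0 lower under median scaling. The median of all probes under that scaling was 0.17, but probes near the floor moved less, so it is not a full baseline for the beta ring. Psmb10, the inducible subunit that replaces Psmb7 in the immunoproteasome, read 11.25, 11.23 and 11.28 in Dhep hepatocytes, against 10.08, 10.10 and 10.06 in FF hepatocytes. The groups lay far apart with no overlap, and the fitted ratio was 2.25-fold (1.17 ± 0.06 on the log2 scale, limma, adjusted p = 1.86e-14). Psmb4, a non-catalytic subunit, was the other gene that was higher, by 0.14. Psmb2 (0.08) and Psmb11 (-0.05) did not pass.

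Of the constitutive catalytic subunits, Psmb5 carries the chymotrypsin-like site, Psmb7 the trypsin-like site and Psmb6 the caspase-like site. Psmb5 read 8.64, 8.59 and 8.51 in Dhep hepatocytes, against 8.76, 8.89 and 8.96 in FF hepatocytes. The Dhep hepatocyte arrays lay below the FF hepatocyte arrays, and the difference of -0.29 ± 0.07 passed (limma, adjusted p = 0.000806), yet under median scaling it turned to 0.21. In the deposited raw intensities, before any scaling, Psmb5 read 464.8, 416 and 371.7 in Dhep hepatocytes, against 327.4, 366 and 331.8 in FF hepatocytes. The raw order is thus the opposite of the normalized one, but the FF hepatocyte arrays were dimmer in raw brightness, so it says little about Psmb5 by itself. Psmb6 read 11.95, 11.95 and 11.94 in Dhep hepatocytes, against 12.02, 12.01 and 12.02 in FF hepatocytes. This gap of -0.07 did not pass (limma, adjusted p = 0.272) and turned to 0.23 under median scaling. Psmb7 read 12.15, 12.16 and 11.93 in Dhep hepatocytes, against 11.98, 11.95 and 11.88 in FF hepatocytes, so the groups overlapped. Its difference of 0.14 did not pass (limma, adjusted p = 0.0549). The structural subunits Psmb3 (-0.31) and Psmb1 (-0.26) were lower in Dhep hepatocytes, but gave -0.02 and 0.08 under median scaling. All probes had a median of 0.17 under that scaling, beside which the values of Psmb5, Psmb6, Psmb3 and Psmb1 stand.

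**Figure D2:**
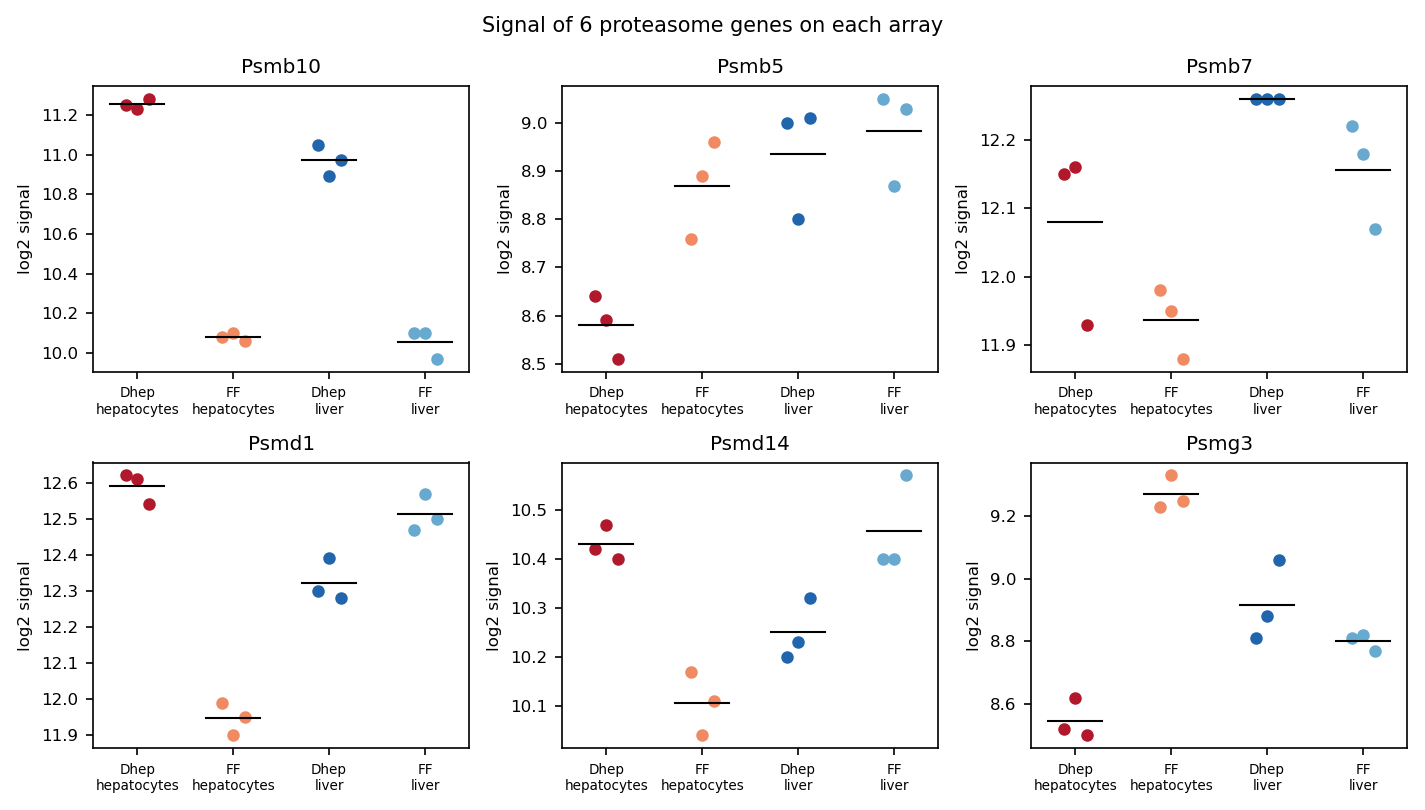
Normalized log2 signal of 6 proteasome genes on the 3 arrays of each group, with bars at the group means. Psmb10 is high in both Dhep groups, Psmd1 and Psmd14 are lowest in FF hepatocytes, Psmg3 is highest there, and Psmb5 is lowest in Dhep hepatocytes (under median scaling Psmb5 is higher in Dhep than in FF hepatocytes, by 0.21, and Psmg3 differs by -0.01 between FF hepatocytes and FF liver). The median of all probes for the hepatocyte genotype difference is 0.17 under median scaling.

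Of the 16 tested genes of the 19S cap, 12 were higher in Dhep hepatocytes and 0 lower, with a median difference of 0.27. Under median scaling these were 16 and 0, with a median of 0.63, where all probes had 0.17. Probes near the floor moved less under that scaling, so the gap to all probes is not a measure of the cap genes alone. Under quantile normalization all 6 ATPases of the cap's base were higher, with Psmc1 at 0.49, Psmc3 at 0.48, Psmc2 at 0.36, Psmc6 at 0.35, Psmc4 at 0.22 and Psmc5 at 0.13. Psmc5 did not pass under cyclic loess (0.07) or in the authors' normalized table (0.12). Psmc1 read 10.63, 10.66 and 10.68 in Dhep hepatocytes, against 10.17, 10.17 and 10.14 in FF hepatocytes. The spread within each group was a small part of the gap (limma, adjusted p = 2.27e-08). Psmc3 read 10.65, 10.71 and 10.77 in Dhep hepatocytes, against 10.17, 10.21 and 10.31 in FF hepatocytes. Its arrays did not overlap either.

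Of the 10 tested non-ATPase subunits of the cap, 6 were higher in Dhep hepatocytes and 0 lower. Psmd1, the large scaffold subunit of the base, read 12.62, 12.61 and 12.54 in Dhep hepatocytes, against 11.99, 11.90 and 11.95 in FF hepatocytes. The FF hepatocyte arrays lay below every array of the other groups, and the ratio was 1.56-fold (0.65 ± 0.06 on the log2 scale, limma, adjusted p = 5.17e-10). The raw intensities, 6991, 6313 and 5799 in Dhep hepatocytes and 3455, 3278 and 2903 in FF hepatocytes, had the same order. Since the FF hepatocyte arrays were dimmer in raw brightness, that order by itself says little about Psmd1. The lid subunits Psmd12 and Psmd11 were higher by 0.45 and 0.43. Psmd14, the lid's deubiquitinase, which cuts the chain off the substrate, read 10.42, 10.47 and 10.40 in Dhep hepatocytes, against 10.17, 10.04 and 10.11 in FF hepatocytes. It was higher by 0.33 ± 0.06 with no overlap (limma, adjusted p = 5.5e-05). Psmd4, a ubiquitin receptor, and the lid subunit Psmd13 were each higher by 0.22. Psmd6 (0.20), Psmd7 (0.07), Psmd8 (0.05) and Psmd2 (0.01) did not pass.

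Among the assembly factors, Psmg1 and Psmg2 form the chaperone pair that starts the alpha ring, Psmg3 belongs to the second such pair, and Psmd5, Psmd9 and Psmd10 are chaperones of the cap's base. Psmg3 read 8.52, 8.62 and 8.50 in Dhep hepatocytes, against 9.23, 9.33 and 9.25 in FF hepatocytes. It was the tested member furthest below FF hepatocytes, by -0.72 ± 0.06 (1.65-fold lower, limma, adjusted p = 6.47e-10), and by -0.23 under median scaling. Its raw intensities overlapped, with 426.6, 423.7 and 369.6 in Dhep hepatocytes and 458, 505 and 411.2 in FF hepatocytes. Psmg1 gave -0.31 (limma, adjusted p = 8.72e-05) and Psmg2 -0.14 (limma, adjusted p = 0.0521), but these turned to 0.18 and 0.35 under median scaling. Psmd5 (0.32) and Psmd9 (0.29) were higher, and Psmd10 gave 0.09 and did not pass. Over the 6 tested assembly factors, 2 were higher and 2 lower with a median of -0.03 (5 and 1 under median scaling, 0.46). Under that scaling the median of all probes was 0.17.

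Both activators were higher in Dhep hepatocytes. Psme4, the PA200 cap, read 11.58, 11.54 and 11.45 in Dhep hepatocytes, against 11.11, 11.09 and 11.18 in FF hepatocytes. It was higher by 0.40 ± 0.06 (limma, adjusted p = 1.93e-06), and Psme3, the nuclear PA28-gamma, by 0.27. The arrays of the groups overlapped in neither. Psmc3ip (0.06) and Psme3ip1 (-0.14) did not pass.

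**Figure D3:**
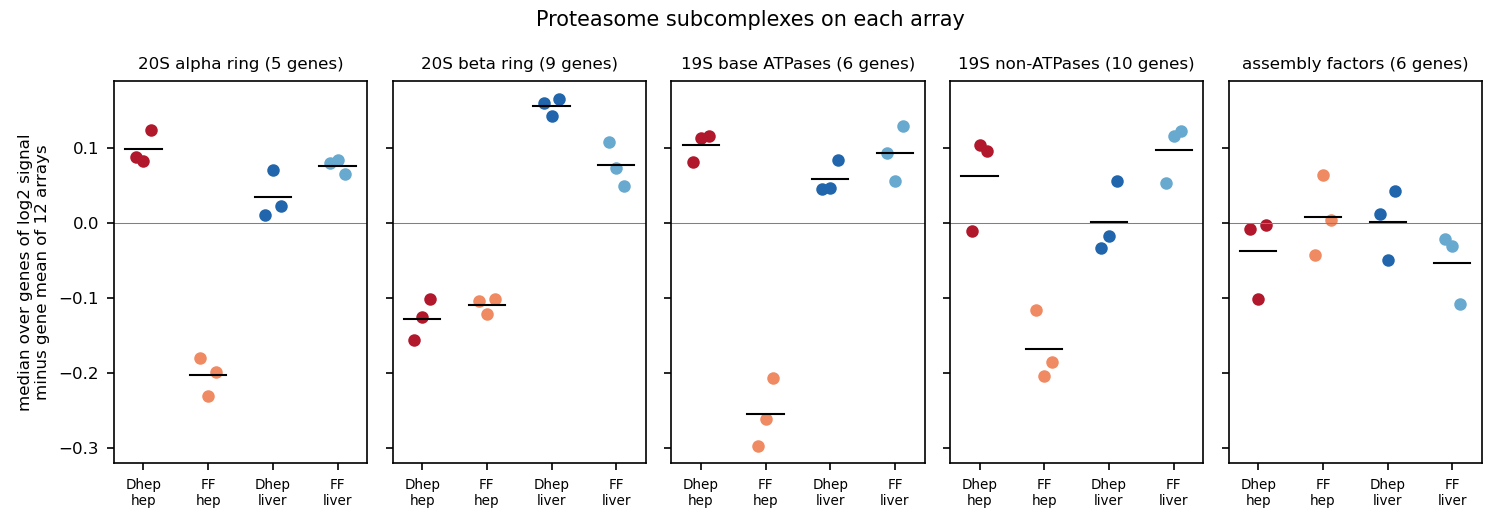
Median over the tested genes of each subcomplex of the log2 signal minus the gene's own mean over 12 arrays, on every array, with bars at the group means. The FF hepatocyte arrays are lowest in the alpha ring, the base ATPases and the non-ATPases, both hepatocyte groups are low in the beta ring, and the groups overlap in the assembly factors. Under median scaling the Dhep minus FF difference in hepatocytes has a median of 0.23 in the beta ring and 0.46 in the assembly factors, where quantile normalization gives -0.05 and -0.03. All probes have a median of 0.17 for this difference under median scaling.

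The genes of a subcomplex were also summarized on each array, relative to each gene's own mean. The median of the base ATPases was 0.103 ± 0.019 in Dhep hepatocytes, -0.255 ± 0.046 in FF hepatocytes, 0.059 ± 0.022 in Dhep liver and 0.093 ± 0.037 in FF liver (log2, SD, n = 3 arrays). FF hepatocytes were the group apart. The median of the beta ring was -0.128 ± 0.027 in Dhep hepatocytes, -0.109 ± 0.010 in FF hepatocytes, 0.155 ± 0.012 in Dhep liver and 0.077 ± 0.030 in FF liver. On this scale both hepatocyte groups lay below both liver groups. Under median scaling the beta ring's median isolation difference was -0.60 in FF and -0.17 in Dhep, so the placing of Dhep hepatocytes depends on the scaling. FF hepatocytes held the lowest group mean for 23 of the 40 members (57.5%), against 35.1% of all tested probes, and for 12 of the 16 cap genes.

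The second comparison asked the same of whole liver. There Psmb10 again had the largest difference among the members. Of the 40 members tested, 3 were higher and 5 lower in Dhep liver, where 13.1% of all probes were higher and 14.7% lower (3 and 23 under median scaling). The median difference was -0.01, and -0.21 under median scaling. On 7 members all Dhep liver arrays lay above all FF liver arrays and on 9 below, where 18.5% and 21.9% of all probes did. Psmb10 read 11.05, 10.89 and 10.97 in Dhep liver, against 10.10, 10.10 and 9.97 in FF liver. The groups did not overlap. It was 1.89-fold higher (0.92 ± 0.06 on the log2 scale, limma, adjusted p = 7.2e-12) and was the 1 member past 1.5-fold, where 1.54% of all probes were higher and 0.376% lower. The other genes that were higher were Psmd5 (0.37) and Psmc3ip (0.28).

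In the 19S cap, 0 of 16 genes were higher in Dhep liver and 4 lower, with a median of -0.07 (0 and 12 under median scaling, -0.27). Psmc6 read 7.13, 6.93 and 7.03 in Dhep liver, against 7.42, 7.31 and 7.58 in FF liver. It was lower, at -0.40 ± 0.08, with no overlap (limma, adjusted p = 0.000554). Psmd13 (-0.25), Psmd14 (-0.21), Psmd1 (-0.19) and the activator Psme4 (-0.27) were the other genes that were lower. In the 20S core 1 gene, Psmb10, was higher and 0 were lower (1 and 6 under median scaling). The catalytic genes gave -0.05 for Psmb5, 0.00 for Psmb6 and 0.10 for Psmb7, and none of these passed (limma, adjusted p = 0.655, 0.998 and 0.232). The chaperones Psmg1 (-0.05), Psmg2 (0.06), Psmg3 (0.12), Psmd9 (0.04) and Psmd10 (-0.15) did not pass either.

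Whether the genotype difference itself differed between preparations was tested as its value in hepatocytes minus its value in liver. At an adjusted p under 0.05 it passed above 0 for 21 of the 40 members and below 0 for 5, where 23.9% and 21.2% of all probes did, with a median of 0.24 (35 and 0 under median scaling, 0.77). In the cap these counts were 13 and 0 of 16, with a median of 0.38 (15 and 0 under median scaling, 0.98). Psmd1 had the highest value, 0.84 ± 0.08 (limma, adjusted p = 5.22e-09), with genotype differences of 0.65 in hepatocytes and -0.19 in liver. Psmc6 gave 0.76 (0.35 in hepatocytes and -0.40 in liver), Psme4 0.67 (0.40 in hepatocytes and -0.27 in liver), Psmc3 0.56 and Psmd14 0.53. On their brightest probes Psmd1, Psmc6, Psme4, Psmd13 and Psmd14 passed as higher in Dhep hepatocytes and as lower in Dhep liver. The dimmer Psme4 probe, near the floor, gave 0.38 in hepatocytes and 0.05 in liver, where it did not pass (limma, adjusted p = 0.528). For the difference between genotype differences the dimmest Psmd1 probe passed below 0, at -0.20 (limma, adjusted p = 0.0427). The second Psmd1 probe gave 0.71 there and the dimmer Psmd14 probe 0.64. Psmg3 had the lowest value, -0.84 ± 0.09 (limma, adjusted p = 3.48e-08), with -0.72 in hepatocytes and 0.12 in liver, but gave -0.18 and did not pass under median scaling (limma, adjusted p = 0.17). Psmd1, Psmc6, Psme4 and Psmg3 were the 4 members past 1.5-fold, where 5.11% of all probes were above and 6.39% below. Psmb10 gave 0.26 (limma, adjusted p = 0.011), 0.85 under median scaling, and 0.17 under cyclic loess, where it did not pass (limma, adjusted p = 0.0797). Psmb3 (-0.43), Psmg1 (-0.26) and Psmb5 (-0.24) passed below 0, but turned to 0.08, 0.39 and 0.43 under median scaling. Psmd5, which passed as higher in Dhep in both preparations, gave -0.05 and did not pass (0.37 under median scaling). Psmd9 passed at 0.25 but not under cyclic loess (0.18) or in the authors' normalized table (0.22), while Psmd10 (0.24), Psmg2 (-0.20), Psmb6 (-0.07) and Psmb7 (0.04) did not. Over the 40 members, the genotype differences in hepatocytes and in liver, which share no array, had Pearson's r = 0.231, Spearman's rho = -0.158 and 19 equal signs. Over all tested probes the values were 0.285, 0.0657 and 51.4%. Genes are not independent replicates, and these are descriptions.

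The remaining comparisons set isolated hepatocytes against liver of the same genotype. Of the 40 members tested, 9 were higher and 12 lower in Dhep hepatocytes than in Dhep liver, where 21.4% of all probes were higher and 20.5% lower, with a median of -0.03 (15 and 4 under median scaling, 0.08). At 1.5-fold 0 members passed either way, where 2.43% of all probes were higher and 3.23% lower. The arrays did not overlap for 12 members that lay higher and 14 that lay lower, where 25.8% and 24.4% of all probes did so. Of the cap genes 5 were higher and 1 lower (8 and 0 under median scaling), and of the beta ring genes 1 was higher and 6 lower (1 and 3 under median scaling). Psmc6 read 7.42, 7.59 and 7.82 in Dhep hepatocytes, against 7.13, 6.93 and 7.03 in Dhep liver. The groups did not overlap, and it was higher by 0.58 ± 0.08 (limma, adjusted p = 2.49e-06). Psmd6 (0.45), Psmc3 (0.30) and Psme4 (0.29) were also higher, as were Psmb10 (0.28), Psmd9 (0.26) and Psmd14 (0.18). Psmb3 read 11.78, 11.66 and 11.82 in Dhep hepatocytes, against 12.29, 12.29 and 12.23 in Dhep liver. The groups did not overlap, and Psmb3 was lower, at -0.52 ± 0.05 (limma, adjusted p = 2.75e-08). The catalytic genes Psmb5 (-0.36), Psmb6 (-0.31) and Psmb7 (-0.18) were lower too, with Psmg3 (-0.37), Psmd5 (-0.31) and Psmg1 (-0.29), while Psmd10 (0.08) and Psmg2 (0.02) did not pass. Under median scaling Psmb5 (-0.17), Psmb7 (-0.09), Psmd5 (-0.15) and Psmg1 (-0.11) no longer passed, and Psmb7 (-0.14) did not pass in the authors' normalized table.

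In FF mice, of the 40 members tested, 3 were higher and 22 lower in FF hepatocytes than in FF liver, where 20.9% of all probes were higher and 26.9% lower (0 and 36 under median scaling). The median was -0.23, against -0.03 over all genes, and -0.64 under median scaling. At 1.5-fold 0 members passed either way, where 4.62% of all probes were higher and 2.24% lower. The arrays did not overlap for 4 members that lay higher and 26 that lay lower, where 23.3% and 30.2% of all probes did so. Of the cap genes 0 were higher and 11 lower, and of the core genes 0 and 8 (0 and 15, and 0 and 13, under median scaling). Psmd1 read 11.99, 11.90 and 11.95 in FF hepatocytes, against 12.47, 12.57 and 12.50 in FF liver. The groups did not overlap, and it was lower, at -0.57 ± 0.06 (limma, adjusted p = 6.73e-09). Psmd11 (-0.54), Psmc2 (-0.48) and Psmd12 (-0.44) followed, and the deubiquitinase Psmd14 gave -0.35. Of the catalytic genes Psmb6 (-0.24) and Psmb7 (-0.22) were lower, while Psmb5 (-0.11) and Psmb10 (0.03, and -0.46 under median scaling) did not pass. Psmg3 read 9.23, 9.33 and 9.25 in FF hepatocytes, against 8.81, 8.82 and 8.77 in FF liver. It was higher by 0.47 (limma, adjusted p = 9.27e-07), which became -0.01 under median scaling. Psmg2 was higher by 0.22 (-0.26 under median scaling) and Psmc3ip by 0.18 (0.13 under median scaling, where it did not pass), and Psmd5 was lower, at -0.26. Psmd9 (0.01), Psmd10 (-0.16) and Psmg1 (-0.03) did not pass.

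Other probes of the same genes were set beside the brightest one. Of 22 members with more than 1 tested probe, all probes of 17 had the same sign in the hepatocyte genotype comparison, and those of 13 in liver. The dimmer Psmb10 probe gave 1.45 in hepatocytes and 0.98 in liver, and the dimmer Psmd14 probe 0.44 and -0.20. Of the other Psmd1 probes, the brighter gave 0.50 in hepatocytes and the dimmer -0.31. For Psmd7, a lid subunit, the dimmest probe gave -0.85 in hepatocytes and 0.41 in liver, against 0.07 and -0.08 for the brightest. The middle Psmd7 probe passed as higher in both, at 0.31 and 0.28 (limma, adjusted p = 0.000151 and 0.00134). The dimmer Psmc5 probe gave 0.49 in hepatocytes, against 0.13. The dimmer Psmd8 probe, near the floor, passed there at -0.19, against 0.05. In liver a further Psmb7 probe passed at 0.34 (limma, adjusted p = 3.8e-05), while the others gave 0.10, 0.06 and -0.11 and did not. The dimmer Psmd9 probe gave -0.16 in hepatocytes, where the brightest gave 0.29. Both further Psmg2 probes were lower in Dhep hepatocytes, at -0.36 and -0.46 (limma, adjusted p = 0.000339 and 4.28e-07).

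Genes that work with the proteasome were described from lists. The left-out inducible subunits Psmb8 and Psmb9 differed more than Psmb10, by 2.09 and 2.37 in hepatocytes and 1.76 and 1.69 in liver. Psme1, one subunit of the PA28 activator, was higher by 0.88 in hepatocytes and 0.50 in liver. Its partner Psme2 was lower in Dhep hepatocytes, at -0.32 (0.17 under median scaling), and gave 0.06 in liver, where it did not pass. Of all tested probes 27.7% were higher and 26.2% lower in Dhep than in FF hepatocytes. Of 10 tested proteasome genes outside the name pattern, 4 were higher and 1 lower in Dhep hepatocytes (9 and 1 under median scaling). The higher ones were the cap's deubiquitinases Usp14 (0.39) and Uchl5 (0.26), the shuttle factor Rad23b (0.39) and the core's maturation factor Pomp (0.14). The lower one was Sem1, a small lid subunit, at -0.50. In Dhep mice Sem1 was also lower in hepatocytes than in liver, at -0.69.

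Of 10 tested genes of proteasome transcription and its activation, 2 were higher and 4 lower in Dhep hepatocytes (5 and 1 under median scaling). Without median scaling 27.7% of all tested probes were higher and 26.2% lower, so these counts do not set the list apart. Nfe2l1 read 10.69, 10.75 and 10.83 in Dhep hepatocytes, 10.88, 10.99 and 10.92 in FF hepatocytes, 10.26, 10.28 and 10.45 in Dhep liver and 10.43, 10.46 and 10.40 in FF liver. It was lower in Dhep than in FF hepatocytes, at -0.17 (limma, adjusted p = 0.0178), which turned to 0.19 under median scaling. It was higher in hepatocytes than in liver by 0.43 in Dhep and by 0.50 in FF (0.53 and 0.05 under median scaling). Nfe2l2, which encodes NRF2, was higher in Dhep by 0.27 in hepatocytes and by 0.51 in liver. Mafg, a small Maf partner of both factors, was lower in Dhep hepatocytes, at -0.76, and higher in Dhep liver, by 0.19 (-0.28 and -0.01 under median scaling).

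In the same comparison, where 27.7% of all tested probes were higher and 26.2% lower, ubiquitin supply was described too. Of its 13 tested genes, 8 were higher and 1 lower in Dhep hepatocytes (10 and 1 under median scaling). The lower one was Uba6, an alternative ubiquitin-activating enzyme. It read 7.36, 7.37 and 7.42 in Dhep hepatocytes, 9.21, 9.23 and 9.27 in FF hepatocytes, 7.63, 7.63 and 7.78 in Dhep liver and 7.53, 7.59 and 7.59 in FF liver. FF hepatocytes stood far above the other groups, which gave -1.85 between genotypes in hepatocytes and 1.67 for isolation in FF.

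With the RNA sample as the unit, 4 means remained for a model of preparation plus genotype. In limma, 0 of the 40 members passed, as did 0 of all 22859 probes. At an unadjusted p under 0.05 stood 2 members, Psmb10 (1.04) and Psmd5 (0.34), where 4.93% of all probes did. With all 12 arrays and the RNA sample as a random block, 2 members and 1909 probes passed. The median genotype difference of the members was 0.05 over the RNA means, against -0.01 over all probes.

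The calls were compared across 4 scalings of the same arrays. Of the calls in the hepatocyte genotype comparison, 20 of the 22 higher and 1 of the 5 lower, Psmg3, passed with the same sign under quantile, median and cyclic loess scaling and in the authors' normalized table. The 2 higher calls not shared were those of Psmc5 and Psma8. In liver all 3 higher and all 5 lower calls did. For isolation in FF 21 of the 22 lower and 0 of the 3 higher calls did, and for isolation in Dhep 9 of 9 higher and 4 of 12 lower. For the difference between genotype differences 17 of 21 calls above 0 and 0 of 5 below did. Median scaling moved the median of all probes to 0.17 for genotype in hepatocytes and -0.15 for isolation in FF. It moved it to 0.06 for isolation in Dhep and 0.23 for the difference between genotype differences. Calls in the direction of such a move were more easily kept than calls against it. The shared counts therefore do not measure how robust the calls of 1 direction are beside the other.

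**Figure D4:**
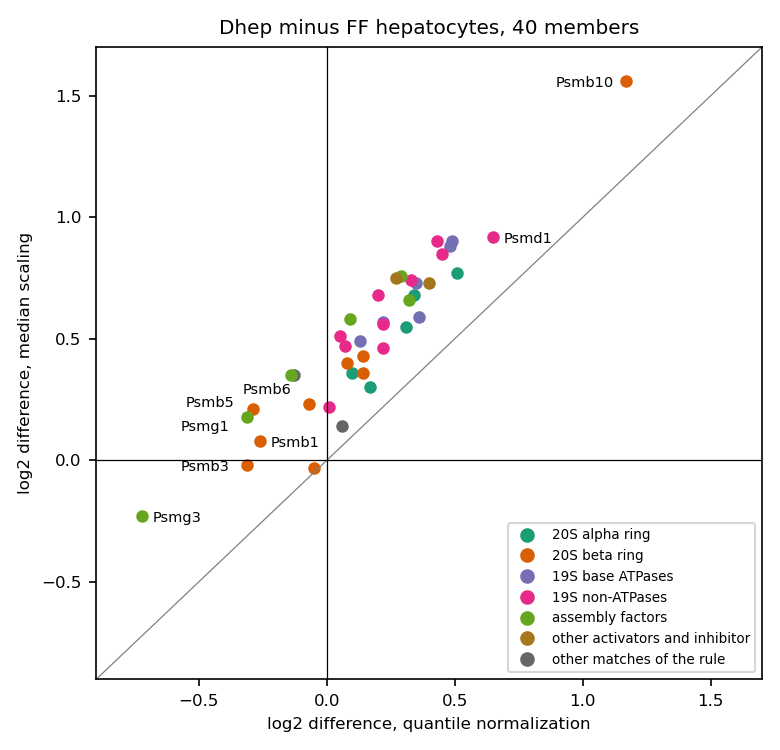
Dhep minus FF log2 difference in hepatocytes of the 40 tested members under quantile normalization (x axis) and under median scaling (y axis), coloured by subcomplex, with the line of equal values. All points lie above the line, and Psmb5, Psmg1, Psmb6 and Psmb1 are below 0 on the x axis and at 0.21, 0.18, 0.23 and 0.08 on the y axis, while Psmg3 is below 0 on both axes. The median of all probes is 0.17 under median scaling.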

How the data were processed

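RNA was extracted with guanidine thiocyanate, per the labels' protocols, and read on Illumina bead arrays with BeadStudio, per the submitters' processing notes, which give no version. The authors deposited 2 tables, raw linear bead intensity per probe and a normalized intensity table, whose method the sources used here do not give. All 12 columns of each matched an array. Gene symbols came from GEO's platform annotation: of 45281 probes, 34885 have 1 symbol, 18 several and 10378 none. The members and lists were chosen with earlier results of these data known.

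From the deposited raw intensity, background was corrected with normexp (offset 50, without negative controls, since no detection p-values were used here). Then log2 was taken and the log2 values were quantile-normalized. Probes were kept where all arrays of at least 1 group exceeded the floor (6.06 log2, 66.7 linear), which left 22859 (50.5%). Group means over 12 arrays were fitted with limma 3.58.1 (R 4.3.3, statmod 1.5.0) with 8 residual degrees of freedom and 14.8 prior ones. Probes passed at 0.05 after Benjamini-Hochberg adjustment over all kept ones, and the further threshold was 1.5-fold (0.585 log2). RNA means were fitted as preparation plus genotype. The number of arrays limits the precision. On simulated data, 37 of 50 probes changed 1.25-fold and 49 of 50 changed 1.5-fold were recovered among 22859 probes in the hepatocyte genotype comparison, with 7 false calls. The simulated noise had only the spread between repeat arrays, and few probes were changed. These counts therefore give no error rate for differences between mice.

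Named were, per comparison, up to 4 members each way with the largest non-overlapping difference among those that passed, every member that passed at 1.5-fold, the catalytic genes, Psmd14, the assembly factors and, of the pathway lists, up to 3 genes past 1.5-fold, with Psmb8, Psmb9, Psme1, Psme2, Nfe2l1, Nfe2l2, Ikbkb and Alb. Other genes were given with their values after these were seen. Promoters are RefSeq's on GRCm38.p6. Figures were drawn with Python 3.11.15 and matplotlib 3.10.9. The alternatives were background correction, scaling, filter, prior, replicate block, groups in the fit, fold threshold, probe choice and each array left out.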

Additional observations from a re-analysis of the deposited data

Results flagged for a closer look

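In 4 members the genotype difference in hepatocytes differed from that in liver past 1.5-fold by limma's test of the difference itself, given here as the hepatocyte value minus the liver value on the log2 scale. Psmd1, the scaffold of the cap's base, gave 0.84 (limma, adjusted p = 5.22e-09), with 0.65 in hepatocytes and -0.19 in liver. Psmc6, a base ATPase, gave 0.76 (limma, adjusted p = 8.34e-06), with 0.35 in hepatocytes and -0.40 in liver. The activator Psme4 gave 0.67 (limma, adjusted p = 2.59e-07), with 0.40 in hepatocytes and -0.27 in liver. These values are from the brightest probes. The dimmer Psme4 probe, near the floor, gave 0.33, with 0.38 in hepatocytes and 0.05 in liver. Of the other Psmd1 probes, the brighter gave 0.71 and the dimmer -0.20. The chaperone Psmg3 gave -0.84 (limma, adjusted p = 3.48e-08), with -0.72 in hepatocytes and 0.12 in liver, but under median scaling it gave -0.18 and did not pass (limma, adjusted p = 0.17). Each group was 1 RNA sample from 1 mouse, so a difference between mice and a difference between genotypes cannot be told apart in these genes.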

How the results depend on the processing

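Scaling moved the results most. Under median scaling the hepatocyte genotype comparison had a median over members of 0.53 with 35 higher and 1 lower, liver -0.21 with 23 lower, isolation in Dhep 0.08 with 15 higher and 4 lower, isolation in FF -0.64 with 0 higher and 36 lower, and the difference between genotype differences 0.77 with 35 above 0 and 0 below. In the same order, the median of all probes under that scaling was 0.17, -0.06, 0.06, -0.15 and 0.23. Probes near the floor moved less, so these medians do not show how far brighter genes were moved. The signs of single genes turned as well under median scaling. In the hepatocyte genotype comparison Psmg1 gave 0.18, Psmb5 0.21, Psmb6 0.23 and Psmg2 0.35, and in isolation in FF Psmg3 gave -0.01, Psmg2 -0.26, Psmb10 -0.46 and Psmd9 -0.39. In the difference between genotype differences Psmb3 gave 0.08, Psmg1 0.39, Psmb5 0.43, Psmb6 0.46, Psmg2 0.47 and Psmd5 0.37. The raw brightness of the FF hepatocyte arrays moves with these shifts, and the cause was not tested.

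Other settings moved less. The hepatocyte median was 0.21 without background correction, 0.22 with offset 16, 0.20 in the authors' normalized table, 0.14 with no filter, 0.21 with members above the floor on all arrays and 0.14 over all kept probes of a gene. The median for isolation in FF was -0.21 in the authors' normalized table, -0.16 with cyclic loess, -0.17 with no filter and -0.25 above the floor on all arrays. That of the difference between genotype differences was 0.18 with cyclic loess, 0.15 with no filter, where 3 members passed below 0, and 0.17 over all kept probes. With all kept probes 3 members were lower in Dhep liver and 5 were higher for isolation in Dhep, and Psmd9 gave 0.00 in the difference between genotype differences. At a 2-fold threshold 1 member, Psmb10, was higher in Dhep hepatocytes and 0 lower, and the other 4 comparisons had 0 in either direction. With a random block for the RNA sample (consensus correlation 0.566), 2 members passed over genotype. Named members were also counted over all settings except the leaving out of single arrays, with median scaling included. The call was kept in 772 cases, newly passed in 28 and no longer passed in 25. In 15 cases the sign changed with a pass before or after. A change of sign with no pass in either setting was counted among the 772.

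The replicate block gave 22 higher and 5 lower in the hepatocyte genotype comparison, 3 and 6 in liver, 9 and 12 for isolation in Dhep, 3 and 23 for isolation in FF, and 20 and 5 for the difference between genotype differences. Same-numbered arrays did not deviate together, with r of -0.049 to 0.071 over 18 pairs and 0 above 0.1, so the numbers were not taken as pairs.

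With each array left out in turn, the hepatocyte genotype comparison had a median of 0.16 to 0.20, 20 to 22 higher and 5 to 6 lower. Liver had -0.04 to 0.00, 3 higher throughout and 4 to 6 lower, isolation in Dhep -0.04 to -0.01, 7 to 10 higher and 11 to 12 lower, and isolation in FF -0.25 to -0.22, 2 to 3 higher and 22 to 24 lower. The difference between genotype differences had 0.19 to 0.25, 19 to 21 above 0 and 3 to 6 below. Its count below 0 was 3 without the third Dhep liver array, without the second FF liver array or without the second FF hepatocyte array.

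Each group was 1 RNA sample of 1 mouse, so genotype, mouse and preparation run cannot be told apart beyond these RNAs. In simulated data 16 of 50 probes with the smallest simulated difference between genotype differences were recovered, so small ones were often not detectable. The 5 untested members lay near background. Background correction with negative controls was not run.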
